A study of Mus musculus with 43 samples.

Results

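The response of mouse colonoids to 8 µM regorafenib was described from bulk RNA sequencing of 3 colonoid lines, each cultured for 6 days with the drug (R8) or with vehicle (Ve). The comparison rests on 6 of the 24 organoid libraries of the series, which holds 43 samples in all. The genes were those with at least 200 CP20M in at least 2 of these 6 libraries, 10507 of the 52636 genes in the table. CP20M is the number of reads on a gene scaled to 20000000 counted reads per library, not divided by the length of the transcript, so 20 CP20M equal 1 CPM and levels are compared within a gene only. A further 22605 genes had a value in at least 1 of the 6 libraries and did not reach the minimum, and 19524 were at 0 in all 6. At the edge of the rule, 26 members had a second-highest value at the minimum or 1 CP20M above it, and 29 genes that stayed out were 1 or 2 CP20M below it.

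The lines M41, M40 and M1 came from the colon of 1 adult mouse each, of the genotype Vil-cre/ERT2 with wild-type Apc, after tamoxifen was injected in vivo. The Cre recombinase of these mice is driven by the Villin promoter in the gut epithelium, and with no floxed Apc allele in this genotype the colonoids of both groups kept Apc intact. Organoids are grown in a gel from epithelial cells alone. Regorafenib or vehicle was given from the day of replating in 0.5% DMSO. The same lines were also cultured with 4 µM regorafenib (R4), and 3 tumoroid lines (F11, M3 and M14), from tamoxifen-injected mice whose floxed Apc was deleted, received vehicle and 8 µM in the same way. Libraries of 1 line share an animal, so R8 was compared with Ve within lines. Triplets of values are given for M41, M40 and M1, in this order. The spread between lines includes that between animals, and each condition was grown once per line.

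Regorafenib is an oral inhibitor of several kinases, among them the receptors for VEGF, PDGF and FGF, KIT, RET and the RAF kinases, and is used in metastatic colorectal cancer. RAF passes the signal of growth factor receptors through MEK to ERK, whose activity in the gut epithelium supports proliferation and the early response genes. The colonic epithelium renews itself from Lgr5-expressing stem cells at the crypt base, whose daughters become absorptive colonocytes, mucus-producing goblet cells, enteroendocrine cells or tuft cells under transcription factors such as Cdx1, Cdx2 and Hnf4a.

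The 6 libraries held between 4371833 and 16864637 reads on genes, the fewest in R8 of line M1 and the most in Ve of line M40. The members took 97.8% to 98.4% of the CP20M of each library. The epithelial label was checked against markers: all 21 genes of a list of epithelial identity were members, with Krt8 (keratin 8) between 44339 and 69554 CP20M. None of 14 fibroblast markers and none of 7 markers of Paneth cells and small intestine reached the minimum, and the fibroblast markers summed to 66 to 195 CP20M in Ve and 94 to 176 CP20M in R8. Lum, a collagen-binding proteoglycan of fibroblasts, was at 0 in all 6 libraries. Of 11 immune markers 3 were members, Csf1r, Cd14 and Cd68, while Tyrobp was at 0 in all 6 libraries and Ptprc, the leukocyte antigen CD45, at 7 CP20M at most. Endothelial Cldn5 and Emcn were at 0, and 1 of 8 endothelial markers (Egfl7) was a member.

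In R8 1047 genes were higher and 1180 lower than in Ve, 2227 in all or 21.2% of the 10507 tested, by limma with the line as a block (at least 1.5-fold up or down on the fitted scale, at an adjusted p under 0.05). Of all members tested 9.96% were thus called higher and 11.2% lower, and these shares are the background for the gene lists that follow. All 2227 changed in the same direction in the 3 lines, and for 2116 of them the 3 values in R8 did not overlap the 3 in Ve, against 4544 of all members (43.2%). The median log2 fold change was −0.05 over all members, 1.13 over those that rose and −1.03 over those that fell. At least 4-fold changes were seen for 152 genes that rose and 183 that fell, and 16-fold changes for 11 and 21. The median difference of the risen genes was 1.41 in line M41, 1.09 in M40 and 0.90 in M1 on the log2 scale, and that of the fallen genes −1.16, −1.06 and −0.89. The count was 1456 without line M41, 844 without M40 and 3085 without M1. It was 734 when the R4 libraries shared the estimate of the spread, among them the shallow one of line M41 (512599 reads). Fold changes are on the scale of log2(CP20M + 20), which understates those of genes with low levels.

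**Figure D1:**
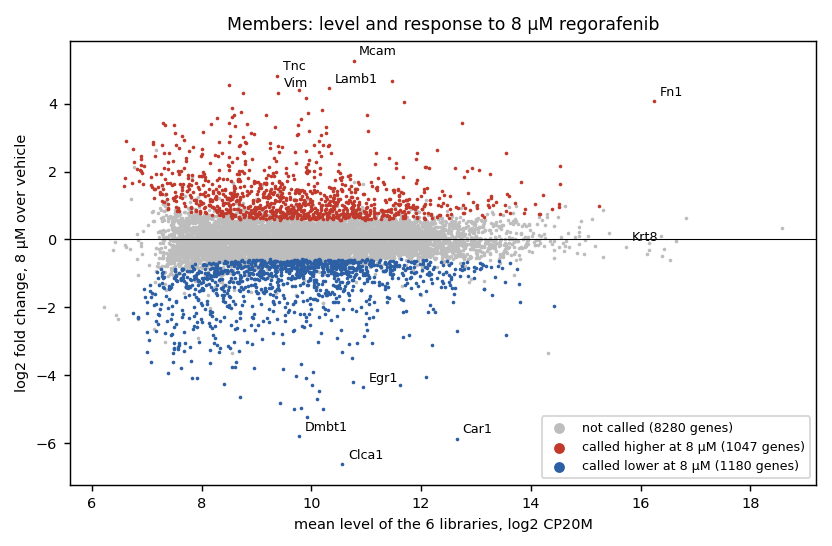
Each point is 1 of the 10507 members, by its mean level in the 6 libraries (horizontal axis, log2 CP20M) and its log2 fold change of R8 over Ve from limma (vertical axis). Red points are the 1047 genes called higher, blue points the 1180 called lower and grey points the rest, and the largest falls reach further from 0 than the largest rises.

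The 12 largest rises held genes of the matrix, of cell adhesion and of the cytoskeleton. Mcam (chromosome 9, 44134469 to 44142727), a cell adhesion molecule known from melanoma and vascular cells, was at 28, 35 and 99 CP20M in Ve and 7173, 1880 and 1277 CP20M in R8. All 3 R8 values lay above the Ve values and the order of the lines differed (log2 fold change 5.26, SE 0.64, adjusted p = 0.00508). Tnc (chromosome 4, 63959785 to 64047015), which encodes the matrix glycoprotein tenascin C, went from 13, 4 and 9 CP20M in Ve to 2977, 789 and 197 CP20M in R8 (log2 fold change 4.83, SE 0.643, adjusted p = 0.00631), a rise seen in every line and largest in M41. Serpinb9b (chromosome 13, 33027416 to 33041884), a serine protease inhibitor, rose with less spread between lines, from 189, 257 and 121 CP20M in Ve to 7962, 5329 and 3056 CP20M in R8 (log2 fold change 4.66, SE 0.22, adjusted p = 0.000984). The transcript AL589871.1 (log2 fold change 4.39) overlaps Serpinb9b in the annotation, and whether reads were counted by strand is not given in the sources used here, so their reads may not be separate. Sox11, a transcription factor of neural and embryonic progenitors, was at 13, 5 and 2 CP20M in Ve and 912, 1022 and 220 CP20M in R8 (log2 fold change 4.55, SE 0.426, adjusted p = 0.00284). Kif1a, a kinesin motor best known from axons, was at 107, 138 and 15 CP20M in Ve and 2089, 2713 and 687 CP20M in R8 (log2 fold change 4.17, SE 0.173, adjusted p = 0.000831). Both were low in Ve and rose in all 3 lines. They reached the minimum through their R8 values alone, so a low Ve level beside a high R8 level is partly set by the rule. The same holds for Mcam, Tnc and each gene described later whose Ve values all lay under the minimum. Wisp1, a secreted protein of the CCN family, had a log2 fold change of 4.31 and Col4a3, a collagen IV chain, one of 3.86. Of the remaining 4 of the 12, Lamb1, Fn1 and Apol7d are described with the matrix genes and Vim with the genes of mesenchymal states.

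The 12 largest falls were mostly genes of differentiated colonocytes and goblet cells, with the early response gene Egr1. Among those not described with a list below, Myo1a (chromosome 10, 127705170 to 127720940), the brush border myosin, went from 1542, 1832 and 699 CP20M in Ve to 8, 41 and 33 CP20M in R8 (log2 fold change −4.83, SE 0.389, adjusted p = 0.00201). Gabrp, a subunit of the GABA-A receptor found in epithelia, went from 1051, 1674 and 3777 CP20M in Ve to 36, 35 and 183 CP20M in R8 (log2 fold change −4.48, SE 0.21, adjusted p = 0.000984). In both the groups were far apart, and the differences within lines M41, M40 and M1 were −5.80, −4.92 and −3.76 for Myo1a and −4.26, −4.94 and −4.23 for Gabrp on the log2 scale.

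The bases upstream of 4 of these genes are shown because these genes lead the changes, and because their start in the RefSeq promoter table (GRCm38.p6) lies at or next to that of the annotation used for the coordinates here. Each stretch is the 250 bases up to the transcription start, 5′ to 3′ on the strand of the gene. Serpinb9b and Tnc rose, and Fcgbp and Muc2, which encode mucus proteins, fell. Capitals mark a match to TTTATNG, a motif of CDX factors, searched on both strands.
Serpinb9b (chr13:33027164-33027413, strand +): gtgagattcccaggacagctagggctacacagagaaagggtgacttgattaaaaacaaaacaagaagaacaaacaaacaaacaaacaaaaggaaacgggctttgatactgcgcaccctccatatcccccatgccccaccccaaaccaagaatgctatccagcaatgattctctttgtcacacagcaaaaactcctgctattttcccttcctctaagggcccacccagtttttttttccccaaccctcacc
Tnc (chr4:64047016-64047265, strand −, the first of 2 entries): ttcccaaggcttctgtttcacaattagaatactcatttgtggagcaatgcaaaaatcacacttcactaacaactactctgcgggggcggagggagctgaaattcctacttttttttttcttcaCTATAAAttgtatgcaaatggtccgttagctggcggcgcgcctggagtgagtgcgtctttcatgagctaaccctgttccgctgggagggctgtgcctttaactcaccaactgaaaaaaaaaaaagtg
Fcgbp (chr7:28070986-28071235, strand +): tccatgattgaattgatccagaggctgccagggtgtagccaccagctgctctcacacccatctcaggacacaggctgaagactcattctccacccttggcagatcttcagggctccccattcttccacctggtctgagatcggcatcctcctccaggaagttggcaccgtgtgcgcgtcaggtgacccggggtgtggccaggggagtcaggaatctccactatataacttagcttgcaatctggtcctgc
Muc2 (chr7:141690090-141690339, strand +): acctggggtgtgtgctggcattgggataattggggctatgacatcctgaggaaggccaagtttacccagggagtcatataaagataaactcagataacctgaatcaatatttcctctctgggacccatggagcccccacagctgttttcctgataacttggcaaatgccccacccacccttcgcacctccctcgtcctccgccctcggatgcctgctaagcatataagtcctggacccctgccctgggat
Of the motifs TGACTCA (AP-1), GGAATG (TEAD), TTTATNG (CDX), TCACNCCAC (SREBP) and TGATGNAAT (ATF4 with C/EBP), searched on both strands, the 4 windows held 1 match, which overlapped no other, on the reverse strand 127 bases before the start of Tnc. Of all 32851 promoters listed there, 9.81% held the CDX letters, 4.46% those of AP-1, 12.6% those of TEAD, 1.05% those of SREBP and 0.816% those of ATF4 with C/EBP. The shares for CDX were 5.76% over the promoters of the members, 5.2% over those of genes that rose and 8.1% over those of genes that fell, and for TEAD 10.3%, 12.2% and 9.18%. In the same order they were 3.23%, 4.53% and 4.95% for AP-1 and 1%, 1.25% and 1.17% for SREBP. Those for ATF4 with C/EBP were 0.36%, 0.385% and 0%. These shares describe letters in a window and were not tested.

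Genes of absorptive colonocytes fell together. Of 30 in the list 15 were members, and 13 fell, none rose and 2 did not pass, with a median log2 fold change of −3.19 against −0.05 over all members. Car1 (chromosome 3, 14766216 to 14808368), carbonic anhydrase 1 of the surface colonocyte, was at 15957, 8991 and 12531 CP20M in Ve and 16, 326 and 696 CP20M in R8 (log2 fold change −5.88, SE 0.843, adjusted p = 0.00741). Its R8 values spread more than 40-fold between lines and all lay below Ve. Aqp4, a water channel, went from 1515, 975 and 2376 CP20M in Ve to 66, 13 and 19 CP20M in R8 (log2 fold change −5.0, SE 0.348, adjusted p = 0.00142). The homeobox factor Isx (chromosome 8, 74873173 to 74893506), which controls carotenoid uptake in the gut, was at nearly the same level in every line in Ve and fell in all, from 1867, 2052 and 1978 CP20M in Ve to 56, 148 and 60 CP20M in R8 (log2 fold change −4.30, SE 0.248, adjusted p = 0.00105). Dmbt1, a secreted scavenger receptor of the mucosa, fell from 1348, 1069 and 2825 CP20M in Ve to 0, 3 and 33 CP20M in R8 (log2 fold change −5.80, SE 0.226, adjusted p = 0.000831), and it lies within the annotated span of Fgfr2. Aoc1, which oxidises histamine and diamines, had 438, 1382 and 631 CP20M in Ve and 0, 5 and 33 CP20M in R8 (log2 fold change −4.65, SE 0.439, adjusted p = 0.00288). The sulfate transporter Slc26a2 fell less (log2 fold change −1.11, SE 0.157, adjusted p = 0.00705). The brush border protein Cdhr2 (log2 fold change 0.08, adjusted p = 0.788) and the sodium channel subunit Scnn1a (log2 fold change −0.67, adjusted p = 0.113) did not pass. With any 1 line left out, 10 to 14 of the 15 were called lower. Without line M40 the call was lost for Slc26a2 (adjusted p = 0.0551).

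Goblet cell genes fell as well. Of 20 in the list 13 were members, of which 11 fell and none rose (median −3.11). Clca1 (chromosome 3, 145003817 to 145032776), a secreted goblet cell protein that processes mucus, was at 3366, 5060 and 651 CP20M in Ve and 6, 3 and 0 CP20M in R8 (log2 fold change −6.63, SE 0.502, adjusted p = 0.00166). The R8 values stand for 3, 1 and 0 reads, so the size of this fall depends on the constant of 20 CP20M. Muc2 (chromosome 7, 141690340 to 141754693), the main gel-forming mucin of the colon, was at 2267, 4154 and 93 CP20M in Ve and 30, 29 and 5 CP20M in R8 (log2 fold change −4.70, SE 0.761, adjusted p = 0.0104). Its Ve level in line M1 was far below that of the other lines, and the R8 values still lay below it. The same held for Tff3, a trefoil peptide of the mucus, with 2771, 2866 and 138 CP20M in Ve and 2, 17 and 10 CP20M in R8 (log2 fold change −5.22, SE 0.841, adjusted p = 0.0102), and for Agr2, a disulfide isomerase needed for mucin folding, with 2747, 2550 and 245 CP20M in Ve and 20, 64 and 97 CP20M in R8 (log2 fold change −4.08, SE 0.862, adjusted p = 0.0223). Fcgbp, a mucus protein bound to Muc2, fell from 1333, 3536 and 429 CP20M in Ve to 6, 72 and 10 CP20M in R8 (log2 fold change −4.96, SE 0.368, adjusted p = 0.00164). Retnlb, an antibacterial resistin-like peptide, went from 441, 289 and 36 CP20M in Ve to 0, 0 and 0 CP20M in R8 (adjusted p = 0.0199). Its mean in Ve was 29.7-fold above the mean floor of 3 reads per library in R8. This ratio of means is not paired by line, and in M1, with 36 CP20M in Ve, the bound is lower. The list's median was −3.11 also with this ratio as the bound. Retnlb was not called without line M41 (adjusted p = 0.0775) or without M40 (adjusted p = 0.0741). Spink4 (log2 fold change −3.02, adjusted p = 0.0543) and the ribonuclease Ang4 (log2 fold change −2.33, adjusted p = 0.0748) had lower means and did not pass. In bulk samples, fewer goblet cells and less of these RNAs per goblet cell cannot be told apart, and this holds for every cell type list here.

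Hormone-producing enteroendocrine cells gave fewer genes to test, with 6 of 20 markers among the members. Chgb, a secretory granule protein, was at 562, 429 and 20 CP20M in Ve and 18, 23 and 0 CP20M in R8 (log2 fold change −2.77, SE 0.619, adjusted p = 0.0258) and was the one marker that fell. Chga (log2 fold change −2.34, adjusted p = 0.0515) had a value near that of Chgb and did not pass, nor did Pyy, the hormone peptide YY (log2 fold change −0.55, adjusted p = 0.407). In line M1 Chga was at 8 CP20M and Pyy at 19 CP20M already in Ve, and without M1 5 markers were called lower. Cpe, carboxypeptidase E, which processes hormones and is not confined to these cells, went the other way, from 1151, 2674 and 444 CP20M in Ve to 4030, 9541 and 1689 CP20M in R8 (log2 fold change 1.83, SE 0.137, adjusted p = 0.00164). Of 12 tuft cell markers 2 were members, Cd24a (log2 fold change 0.39, adjusted p = 0.178) and Avil (log2 fold change −1.57, adjusted p = 0.244), and neither passed. With line M41 left out, no call was made for Chgb (adjusted p = 0.103). Leaving out line M40 took the call from Chgb (adjusted p = 0.108).

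**Figure D2:**
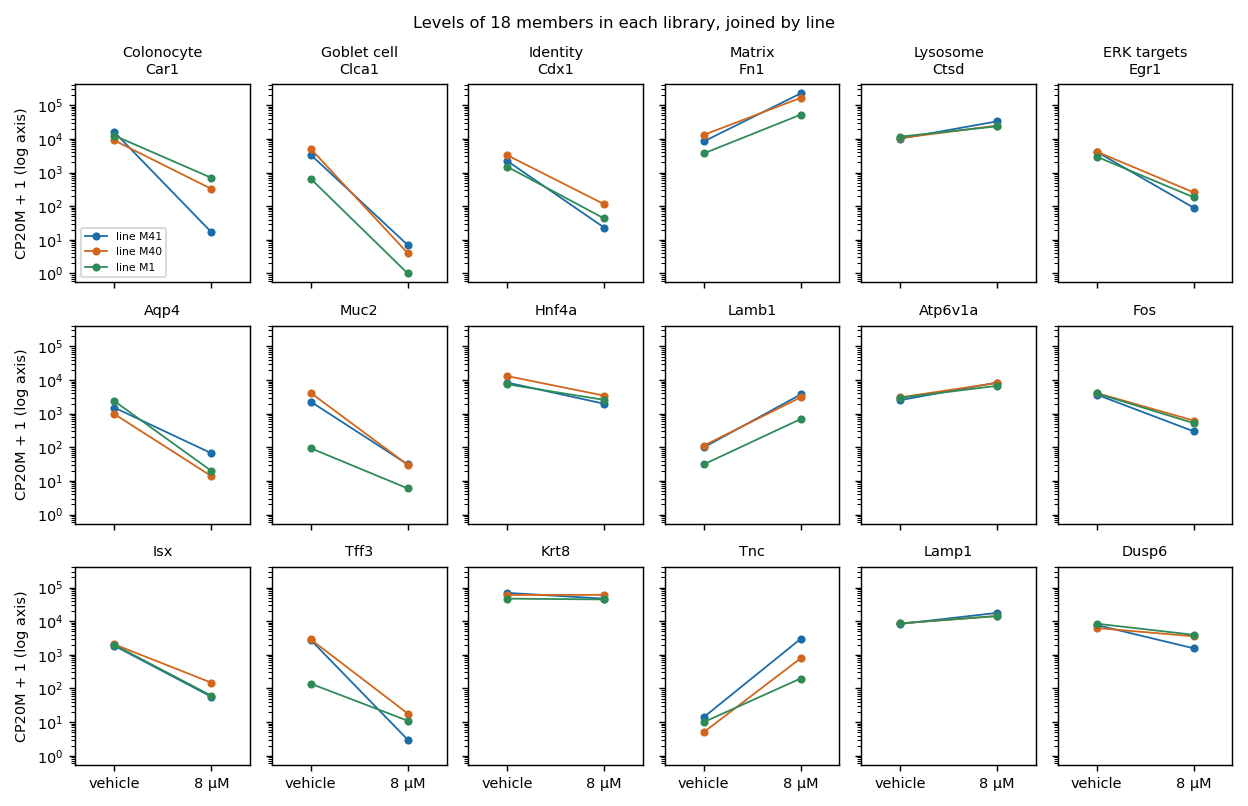
Levels of 18 members in the 6 libraries, as CP20M + 1 on a log axis, in Ve (left of each panel) and R8 (right), with 1 line of the plot per colonoid line. Car1 and Clca1 fall in every line, Fn1, Lamb1 and Tnc rise in every line, the lysosomal genes rise by less and Krt8 stays level.

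Transcription factors of the intestinal epithelium were lower, while Krt8, Krt19 and Cdh1, which are shared by many epithelia, did not pass. In the list of epithelial identity 12 of 21 genes fell and none rose (median −0.97). Cdx1, a homeobox factor of intestinal fate, was at 2207, 3262 and 1484 CP20M in Ve and 22, 113 and 42 CP20M in R8 (log2 fold change −4.98, SE 0.267, adjusted p = 0.00105), and its partner Cdx2 at 2365, 1541 and 2064 CP20M in Ve and 330, 338 and 632 CP20M in R8 (log2 fold change −2.19, SE 0.227, adjusted p = 0.00357). Cdx1 thus fell further than Cdx2 in each of the 3 lines. Hnf4a, a nuclear receptor of enterocyte genes, went from 8413, 13112 and 7476 CP20M in Ve to 1971, 3435 and 2567 CP20M in R8 (log2 fold change −1.85, SE 0.171, adjusted p = 0.00284), and its paralogue Hnf4g had a log2 fold change of −2.58. Krt20, the keratin of mature colonocytes, fell from 881, 1962 and 655 CP20M in Ve to 44, 727 and 23 CP20M in R8 (log2 fold change −3.07, SE 0.499, adjusted p = 0.0106), with 1 R8 value, that of M40, inside the range of Ve. Krt8 (log2 fold change −0.21, adjusted p = 0.551), Krt19 (log2 fold change −0.44, adjusted p = 0.325) and E-cadherin, Cdh1 (log2 fold change 0.18, adjusted p = 0.651), were not called. Of the Kruppel-like factors and other colon transcription factors 9 of 17 fell and 1 rose (median −0.79), and 4 fell without line M40. Klf4, which is needed for goblet cells, was at 5190, 4578 and 6240 CP20M in Ve and 1038, 1137 and 1446 CP20M in R8 (log2 fold change −2.13, SE 0.147, adjusted p = 0.00142), with little spread in either group. The log2 fold change was −1.70 for Foxa2, −1.43 for Klf3 and −1.41 for Klf5, a factor of proliferating crypt cells. Sox4, a factor of progenitor cells, rose from 4662, 10485 and 4778 CP20M in Ve to 13196, 13983 and 10284 CP20M in R8 (log2 fold change 1.00, SE 0.237, adjusted p = 0.0303), with the Ve value of line M40 above the R8 value of M1. Among 16 tight junction genes 6 fell and none rose, among them Cldn23 (log2 fold change −1.90), Ocln (log2 fold change −1.31) and Cldn7 (log2 fold change −1.09), and 3 were called without line M40. Cldn4 (log2 fold change −0.21, adjusted p = 0.449) and Tjp1 (log2 fold change −0.33, adjusted p = 0.326) did not pass. The libraries of the other lines, without M41, gave no call for Foxa2 (adjusted p = 0.0562) or Sox4 (adjusted p = 0.0682). After removal of line M40 the test was no longer passed by Cldn7 (adjusted p = 0.0839) and Foxa2 (adjusted p = 0.0721).

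Genes of the extracellular matrix rose. Of 34 in the list 24 were members, and 19 rose, none fell and 5 did not pass, with a median log2 fold change of 1.92. Fn1 (chromosome 1, 71585520 to 71653200), fibronectin, was at 8367, 13095 and 3683 CP20M in Ve and 224457, 165618 and 52413 CP20M in R8 (log2 fold change 4.07, SE 0.272, adjusted p = 0.00135). Apol7d (log2 fold change 4.04), an apolipoprotein L gene, overlaps Fn1, and its reads may not be separate from those of Fn1. Lamb1 (chromosome 12, 31265234 to 31329644), a laminin chain of the basement membrane, was at 98, 111 and 30 CP20M in Ve and 3717, 3061 and 691 CP20M in R8 (log2 fold change 4.46, SE 0.249, adjusted p = 0.00105). The groups of both genes were more than 4-fold apart at their nearest values, and line M1 was lowest in each group. Other laminin chains rose less, with log2 fold changes of 2.04 for Lama3, 1.41 for Lamc1, 1.21 for Lamb3 and 1.04 for Lamb2, and Lama5 did not pass (log2 fold change 0.99, adjusted p = 0.0587). Chains of collagen IV, the network of the basement membrane, rose too, with log2 fold changes of 2.70 for Col4a5, 1.93 for Col4a1 and 1.83 for Col4a2. Thbs1, thrombospondin 1, was at 771, 1310 and 931 CP20M in Ve and 21905, 10815 and 5380 CP20M in R8 (log2 fold change 3.44, SE 0.416, adjusted p = 0.00506), and Ltbp1, which binds latent TGF-beta, at 173, 89 and 76 CP20M in Ve and 3291, 1192 and 275 CP20M in R8 (log2 fold change 3.07, SE 0.454, adjusted p = 0.00803). Igfbp7 rose in a different order of lines, with M1 highest, from 161, 92 and 96 CP20M in Ve to 1340, 995 and 2686 CP20M in R8 (log2 fold change 3.54, SE 0.327, adjusted p = 0.00284). The proteoglycan Sdc4 stayed level (log2 fold change −0.03, adjusted p = 0.892). With any 1 line left out, 14 to 22 of the 24 were called higher. Of the fibroblast markers, the matrix genes Col1a2 and Dcn were at 4 CP20M or less in all 6 libraries and Lum at 0. Once line M41 was dropped, there was no call for Lamc1 (adjusted p = 0.0558) or Lamb2 (adjusted p = 0.0623). Without line M40 the call was lost for Lamc1 (adjusted p = 0.0916) and Lamb3 (adjusted p = 0.071).

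Receptors for the matrix and enzymes that shape it rose in part. Of 10 integrin subunits 5 rose and none fell (median 0.60). Itga5, which pairs with Itgb1 to bind fibronectin, was at 82, 91 and 93 CP20M in Ve and 831, 875 and 495 CP20M in R8 (log2 fold change 2.75, SE 0.245, adjusted p = 0.00264), with the 3 lines close together in Ve. On the log2 scale Itgav rose by 1.36, Itgb5 by 0.84, Itgb6 by 0.84 and Itgb1 by 0.79. The laminin receptor subunits Itga6 (log2 fold change 0.03, adjusted p = 0.934) and Itgb4 (log2 fold change 0.42, adjusted p = 0.201) did not pass. Without line M40 1 subunit was called, and without M41 2. With M1 left out 7 were called. Of 15 proteases and inhibitors 5 rose and none fell. Bmp1, which cleaves procollagens, was at 204, 152 and 212 CP20M in Ve and 3563, 2168 and 1130 CP20M in R8 (log2 fold change 3.33, SE 0.327, adjusted p = 0.00313). Timp3 went from 122, 73 and 757 CP20M in Ve to 3210, 383 and 2539 CP20M in R8 (log2 fold change 2.78, SE 0.515, adjusted p = 0.0156), a gene whose Ve level in M1 exceeded the R8 level in M40. With line M41 left out, no call was made for Itgb5 (adjusted p = 0.0602), Itgb1 (adjusted p = 0.0931) or Itgb6 (adjusted p = 0.0989). Leaving out line M40 took the call from Itgb5 (adjusted p = 0.259), Itgb1 (adjusted p = 0.283), Itgb6 (adjusted p = 0.0914) and Itgav (adjusted p = 0.0609).

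Genes that mark mesenchymal states and the actin cytoskeleton rose in part. Of 26 in the list 13 were members, of which 7 rose and 1 fell (median 0.96), and 4 rose without line M40. The regulators Zeb1, Zeb2, Snai1, Snai2 and Twist1 and the cadherin Cdh2 did not reach the minimum and were not tested. Vim (chromosome 2, 13573927 to 13582826), vimentin, was at 55, 80 and 3 CP20M in Ve and 880, 2416 and 614 CP20M in R8 (log2 fold change 4.33, SE 0.288, adjusted p = 0.00135). Fscn1, which bundles actin, was at 16, 22 and 6 CP20M in Ve and 490, 281 and 266 CP20M in R8 (log2 fold change 3.38, SE 0.34, adjusted p = 0.00334). On the log2 scale Msn rose by 1.68, Actn1 by 1.62 and Cnn3 by 1.49, all of them proteins of the actin cortex or fibres, while the calcium-binding protein S100a4 fell, from 313, 391 and 212 CP20M in Ve to 36, 31 and 65 CP20M in R8 (log2 fold change −2.34, SE 0.37, adjusted p = 0.00955). Of 27 genes of the fetal-like epithelium and targets of YAP, a coactivator of TEAD factors, 10 rose and 3 fell (median 0.66), with 5 rising without line M41 and 5 without M40. Cald1, caldesmon, was at 125, 125 and 197 CP20M in Ve and 3344, 1589 and 614 CP20M in R8 (log2 fold change 3.19, SE 0.519, adjusted p = 0.0106). Ctgf was at 6868, 7905 and 11379 CP20M in Ve and 46269, 34334 and 35180 CP20M in R8 (log2 fold change 2.16, SE 0.253, adjusted p = 0.00471) and Cyr61 at 802, 893 and 921 CP20M in Ve and 4350, 2475 and 1185 CP20M in R8 (log2 fold change 1.41, SE 0.363, adjusted p = 0.0392), both secreted YAP targets of the CCN family, with groups that did not overlap. Sprr1a fell, from 219, 909 and 276 CP20M in Ve to 36, 27 and 28 CP20M in R8 (log2 fold change −3.01, SE 0.457, adjusted p = 0.00863). Anxa2 (log2 fold change −0.40, adjusted p = 0.225) and the chaperone Clu (log2 fold change 0.88, adjusted p = 0.0713) did not pass, although the 3 R8 values of Clu lay above those of Ve. The libraries of the other lines, without M41, gave no call for Cyr61 (adjusted p = 0.0715). After removal of line M40 the test was no longer passed by Actn1 (adjusted p = 0.0577) and Cyr61 (adjusted p = 0.0994).

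**Figure D3:**
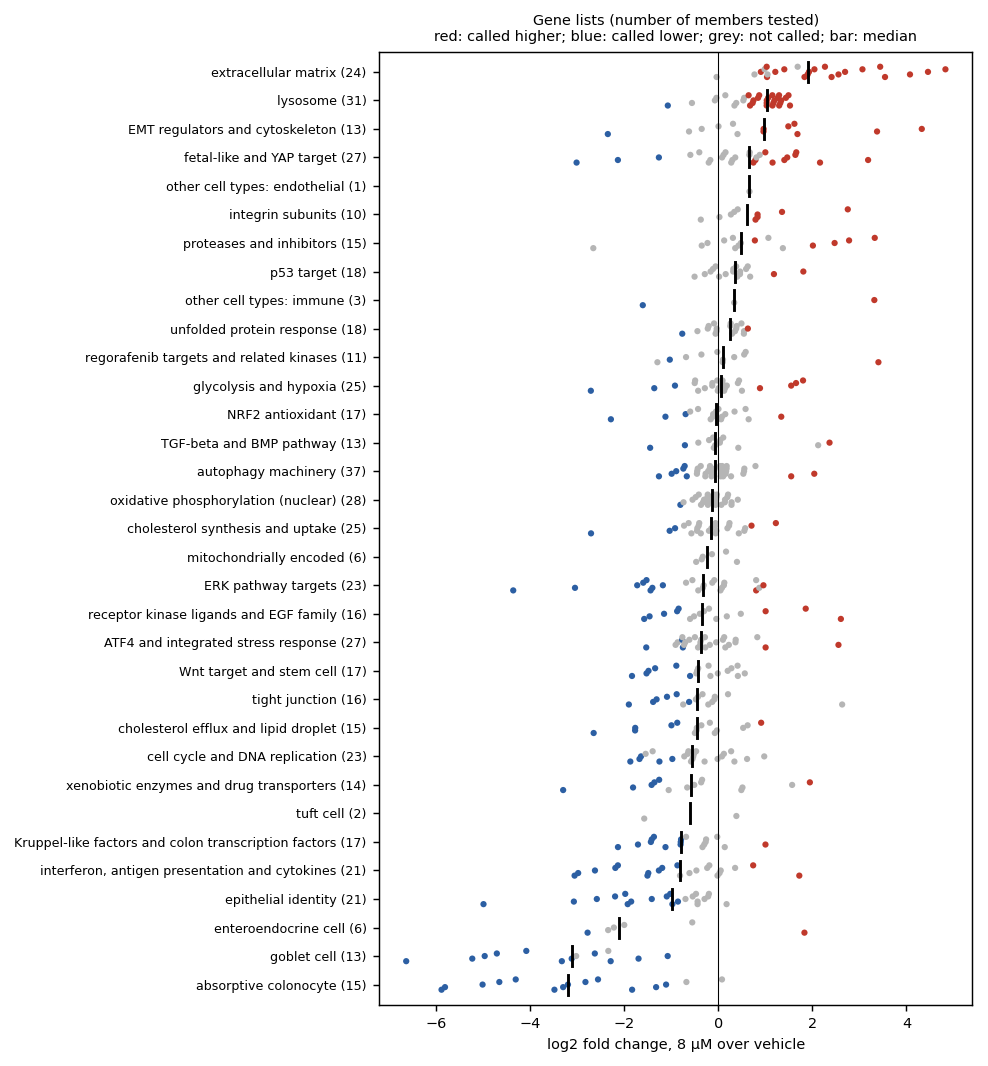
Log2 fold change of R8 over Ve (horizontal axis) of the tested members of each gene list (rows, with the number tested), where each point is 1 gene, red for called higher, blue for called lower and grey for not called, and the black bar is the median of the list. Matrix and lysosome lists lie at the right with medians of 1.92 and 1.03, goblet and colonocyte lists at the left with −3.11 and −3.19, and the respiratory chain and autophagy lists lie close to 0.

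Most lysosomal genes rose. Of 31 members of the list 22 rose, 1 fell and 8 did not pass (median 1.03). Ctsd (chromosome 7, 142375911 to 142388038), cathepsin D, was at 10136, 10562 and 11638 CP20M in Ve and 33154, 24865 and 23606 CP20M in R8 (log2 fold change 1.32, SE 0.207, adjusted p = 0.00945). Atp6v1a, a subunit of the proton pump that acidifies the lysosome, was at 2528, 3059 and 2963 CP20M in Ve and 8433, 8160 and 6725 CP20M in R8 (log2 fold change 1.44, SE 0.17, adjusted p = 0.00477). In both genes each line rose, and the spread between lines in Ve was small beside the rise. The log2 fold change was 1.53 for Gusb, beta-glucuronidase, 1.49 for Lipa, the acid lipase that frees cholesterol from esters, 1.29 for cathepsin B, Ctsb, and 1.15 for Npc2, a cholesterol carrier of the lysosome. The membrane protein Lamp1 went from 8267, 8582 and 8648 CP20M in Ve to 17696, 14268 and 14210 CP20M in R8 (log2 fold change 0.85, SE 0.176, adjusted p = 0.0212). Tfeb, the transcription factor of lysosomal genes, fell, from 331, 475 and 441 CP20M in Ve to 162, 134 and 289 CP20M in R8 (log2 fold change −1.07, SE 0.259, adjusted p = 0.0326). Ctsh (log2 fold change −0.04, adjusted p = 0.88) and Grn (log2 fold change 0.38, adjusted p = 0.238) did not pass. The count of risen genes was 18 without line M41 and 6 without M40. It was 7 when the R4 libraries, including the shallow one of M41, shared the estimate of the spread. The median of the list stayed between 0.80 and 1.12 in all alternatives run. Cd68, a lysosomal membrane protein that also served as a macrophage marker above, went from 55, 48 and 83 CP20M in Ve to 2659, 821 and 211 CP20M in R8 (log2 fold change 3.32, SE 0.687, adjusted p = 0.0211), while Ptprc was at 5 CP20M or less in the same R8 libraries. Of the other immune markers tested, Cd14, a receptor for bacterial lipopolysaccharide, was lower, from 2076, 2560 and 605 CP20M in Ve to 415, 477 and 540 CP20M in R8 (log2 fold change −1.60, SE 0.432, adjusted p = 0.0448), and Csf1r did not pass. Once line M41 was dropped, there was no call for Tfeb (adjusted p = 0.0577) or Cd14 (adjusted p = 0.114). Without line M40 the call was lost for Ctsd (adjusted p = 0.0766), Ctsb (adjusted p = 0.0675), Tfeb (adjusted p = 0.188), Lamp1 (adjusted p = 0.168) and Cd14 (adjusted p = 0.147).

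The autophagy machinery was called at a share near that of all members (21.2%). Of 37 genes 2 rose, 6 fell and 29 did not pass (median −0.07). Gramd1a (chromosome 7, 31130127 to 31155896), a cholesterol transfer protein of the endoplasmic reticulum that acts at sites of autophagosome formation, was at 249, 139 and 239 CP20M in Ve and 1174, 656 and 938 CP20M in R8 (log2 fold change 2.04, SE 0.164, adjusted p = 0.00196). Every R8 value lay above every Ve value. Its paralogue Gramd1b was at 155, 66 and 93 CP20M in Ve and 219, 228 and 129 CP20M in R8 (log2 fold change 0.79, SE 0.322, adjusted p = 0.125) and did not pass, and Gramd1c lay between 98 and 207 CP20M in the 6 libraries and was not tested. Bnip3, a receptor of mitophagy, was at 110, 62 and 191 CP20M in Ve and 407, 287 and 412 CP20M in R8 (log2 fold change 1.55, SE 0.254, adjusted p = 0.0107). Among the genes that fell, Atg2a (log2 fold change −1.26) transfers lipid to the growing membrane, Atg13 (log2 fold change −0.99) belongs to the initiating kinase complex and Map1lc3b (log2 fold change −0.89) encodes LC3, the membrane tag. Map1lc3b overlaps Zcchc14 in the annotation. Of the 6 falls 3 were called without line M41 and 1 without M40. The cargo receptors Sqstm1 (log2 fold change −0.45, adjusted p = 0.206) and Nbr1 (log2 fold change 0.08, adjusted p = 0.73) did not pass. With line M41 left out, no call was made for Map1lc3b (adjusted p = 0.073). Leaving out line M40 took the call from Atg13 (adjusted p = 0.0805) and Map1lc3b (adjusted p = 0.159).

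**Figure D4:**
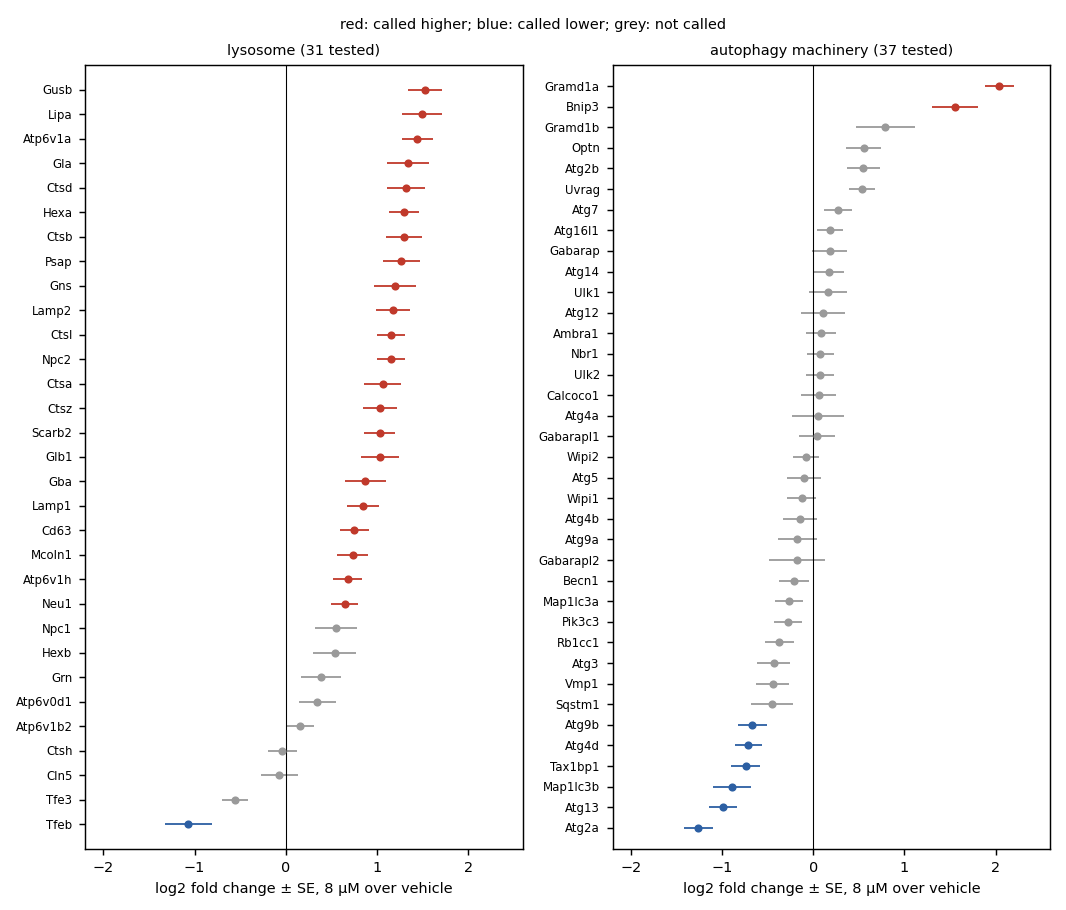
Log2 fold change of R8 over Ve with its standard error (horizontal axis) for the 31 tested lysosomal genes (left) and the 37 tested genes of the autophagy machinery (right), in red where called higher, blue where called lower and grey where not called. On the left 22 genes are red and Tfeb alone is blue, and on the right 2 are red and 6 blue around 0.

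Cholesterol genes that were called moved in different directions. Of 15 genes of cholesterol efflux and lipid droplets 5 fell and 1 rose (median −0.45). The transporters that export cholesterol fell, Abca1 (chromosome 4, 53030787 to 53159895) from 580, 525 and 959 CP20M in Ve to 89, 56 and 138 CP20M in R8 (log2 fold change −2.64, SE 0.198, adjusted p = 0.00164) and Abcg1 from 1448, 1119 and 2276 CP20M in Ve to 608, 256 and 545 CP20M in R8 (log2 fold change −1.76, SE 0.207, adjusted p = 0.00474). In each of the 3 lines both were lower. The desaturase Scd1 fell (log2 fold change −1.76) and fatty acid synthase, Fasn, rose (log2 fold change 0.91). Of 25 genes of cholesterol synthesis and uptake 2 rose, 3 fell and 20 did not pass, a called share near that of all members (21.2%). Dhcr7, the last enzyme of the pathway, was at 744, 867 and 794 CP20M in Ve and 2235, 2068 and 1478 CP20M in R8 (log2 fold change 1.23, SE 0.176, adjusted p = 0.00744), with all R8 values above those of Ve. With 1 line left out the falls among the efflux genes numbered 3 without M41 and 3 without M40, and those of the synthesis genes 1, 1 and 9 without M41, M40 and M1. The regulator Srebf2 did not pass (log2 fold change −0.40, adjusted p = 0.113). The libraries of the other lines, without M40, gave no call for Fasn (adjusted p = 0.131).

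Of the 22 kinases listed as targets of regorafenib or related to them, 11 were members, and 1 rose, 1 fell and 9 did not pass. The called share was near that of all members (21.2%). Flt4, the VEGF receptor of lymphatic endothelium, was at 31, 22 and 42 CP20M in Ve and 803, 437 and 399 CP20M in R8 (log2 fold change 3.40, SE 0.314, adjusted p = 0.00284), low in all Ve libraries and above them in all R8 libraries. Fgfr2, a receptor for FGF7 and FGF10, fell from 510, 1030 and 963 CP20M in Ve to 361, 404 and 380 CP20M in R8 (log2 fold change −1.03, SE 0.215, adjusted p = 0.0218), and its annotated span overlaps that of Dmbt1 and other members. Fgfr4 (log2 fold change −1.29, adjusted p = 0.0651), Braf (log2 fold change 0.55, adjusted p = 0.113), Araf (log2 fold change −0.02, adjusted p = 0.942), Ddr1 (log2 fold change 0.10, adjusted p = 0.707), Mapk14 (log2 fold change 0.10, adjusted p = 0.633), Csf1r (log2 fold change 0.34, adjusted p = 0.262) and Epha2 (log2 fold change −0.68, adjusted p = 0.0763) did not pass. Abl1, with a log2 fold change of 0.58, had an adjusted p of 0.0406 and fell just short of the fold threshold. Kdr, Flt1, Tek, Pdgfra, Fgfr1 and Ddr2 were at 19 CP20M or less in every library. Pdgfrb was at 73, 59 and 13 CP20M in Ve and 4, 5 and 0 CP20M in R8, Kit at 67, 86 and 8 CP20M in Ve and 0, 7 and 0 CP20M in R8, Fgfr3 at 22, 102 and 20 CP20M in Ve and 4, 13 and 0 CP20M in R8 and Ret at 55, 53 and 12 CP20M in Ve and 152, 209 and 28 CP20M in R8, none of them tested. Of the listed receptors for VEGF, PDGF and FGF and KIT, only Fgfr2, Fgfr4 and Flt4 thus reached the minimum, Flt4 through its R8 values alone. After removal of line M40 the test was no longer passed by Fgfr2 (adjusted p = 0.121).

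Genes induced by ERK fell in part. Of 23 targets 8 fell and 2 rose (median −0.32), and with any 1 line left out the count of falls was again 8. Egr1, an early response transcription factor, was at 4146, 4183 and 2958 CP20M in Ve and 89, 256 and 183 CP20M in R8 (log2 fold change −4.35, SE 0.292, adjusted p = 0.00135), and Fos, a subunit of AP-1, at 3697, 4112 and 4004 CP20M in Ve and 298, 623 and 522 CP20M in R8 (log2 fold change −3.04, SE 0.201, adjusted p = 0.00135). The 3 Ve values of Fos differed little, and all R8 values of both genes lay far below them. The phosphatases that limit ERK fell as well, Dusp5 (log2 fold change −1.72) and Dusp6, the latter from 7706, 6283 and 8427 CP20M in Ve to 1565, 3558 and 3948 CP20M in R8 (log2 fold change −1.40, SE 0.293, adjusted p = 0.0218). The AP-1 subunit Fosl1 (log2 fold change −1.59) and Myc, a target of both ERK and Wnt signalling (log2 fold change −1.52), were lower as well. Other ERK targets went up: the inhibitor Spred3 rose from 140, 234 and 210 CP20M in Ve to 310, 469 and 408 CP20M in R8 (log2 fold change 0.96, SE 0.184, adjusted p = 0.017) and the ETS factor Etv5 from 389, 367 and 385 CP20M in Ve to 647, 776 and 627 CP20M in R8 (log2 fold change 0.81, SE 0.165, adjusted p = 0.0204). Ccnd1, cyclin D1, did not pass (log2 fold change 0.08, adjusted p = 0.819). Among 16 receptor kinase ligands and members of the EGF receptor family 3 rose and 5 fell. Fgf2 rose from 177, 311 and 141 CP20M in Ve to 393, 2369 and 2384 CP20M in R8 (log2 fold change 2.61, SE 0.492, adjusted p = 0.0164), least in M41, and Pdgfb from 453, 1065 and 659 CP20M in Ve to 2616, 2774 and 2242 CP20M in R8 (log2 fold change 1.86, SE 0.23, adjusted p = 0.00539). The receptors Erbb2 and Erbb3 fell, Erbb2 from 3187, 3871 and 4403 CP20M in Ve to 1352, 1306 and 1446 CP20M in R8 (log2 fold change −1.46, SE 0.152, adjusted p = 0.00363) and Erbb3 with a log2 fold change of −1.15, as did the ligand Btc (log2 fold change −1.57). Egfr did not pass (log2 fold change −0.19, adjusted p = 0.569). Without line M40, 2 of these genes were called higher and 2 lower. Once line M40 was dropped, there was no call for Etv5 (adjusted p = 0.17), Erbb3 (adjusted p = 0.0691) or Spred3 (adjusted p = 0.109).

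Stem cell and proliferation genes were lower where they passed. Of 17 Wnt targets and stem cell genes 6 fell and none rose (median −0.42), and 3 fell without line M40. Lgr5, the receptor that marks crypt stem cells, was at 146, 500 and 561 CP20M in Ve and 70, 148 and 133 CP20M in R8 (log2 fold change −1.48, SE 0.271, adjusted p = 0.0152), with the Ve value of M41 inside the range of R8. Log2 fold changes were −1.83 for the phospholipase Plce1, −1.34 for Cdca7 and −0.89 for Tiam1, an activator of Rac. Prom1 (log2 fold change 0.28, adjusted p = 0.328) and Cd44 (log2 fold change 0.42, adjusted p = 0.222) did not pass. Ascl2, a transcription factor of the stem cell, was not tested, at 125, 62 and 129 CP20M in Ve and 6, 3 and 5 CP20M in R8. Of 23 cell cycle and replication genes 5 fell and none rose (median −0.55). Mki67, a marker of cycling cells, was at 592, 4532 and 926 CP20M in Ve and 287, 543 and 485 CP20M in R8 (log2 fold change −1.64, SE 0.415, adjusted p = 0.0371), and Mcm5, a subunit of the replicative helicase, at 246, 1230 and 604 CP20M in Ve and 103, 172 and 252 CP20M in R8 (log2 fold change −1.67, SE 0.34, adjusted p = 0.0203). In both the Ve level of line M40 was more than 2-fold that of the other lines, and without M40 none of the 5 was called lower. E2f1, a transcription factor of the G1 to S transition named here after its values were seen, was then called higher, as it was without the block of lines. Pcna (log2 fold change −0.65, adjusted p = 0.0723) and Ccnd2 (log2 fold change 0.61, adjusted p = 0.134) did not pass. Without line M40 the call was lost for Tiam1 (adjusted p = 0.189), Mcm5 (adjusted p = 0.0649), Lgr5 (adjusted p = 0.0747) and Mki67 (adjusted p = 0.0709).

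Of 21 members in a list of cytokines, interferon response and antigen presentation, 10 fell, 2 rose and 9 did not pass (median −0.81). Il18 (chromosome 9, 50554827 to 50581840), a cytokine made by the gut epithelium, was at 3770, 2864 and 3000 CP20M in Ve and 247, 273 and 723 CP20M in R8 (log2 fold change −3.05, SE 0.333, adjusted p = 0.00402). Pigr, which carries IgA across the epithelium, was at 161, 336 and 252 CP20M in Ve and 2, 11 and 33 CP20M in R8 (log2 fold change −2.97, SE 0.38, adjusted p = 0.00576), and the neutrophil-attracting chemokine Cxcl5 at 365, 362 and 798 CP20M in Ve and 20, 54 and 156 CP20M in R8 (log2 fold change −2.62, SE 0.286, adjusted p = 0.00402). Irf7, a factor of the interferon response (log2 fold change −2.18), and Nfkbia, the inhibitor of NF-kappaB (log2 fold change −1.50), fell too. Bst2, an interferon-induced protein that tethers virus particles, rose instead, from 255, 149 and 269 CP20M in Ve to 857, 756 and 691 CP20M in R8 (log2 fold change 1.72, SE 0.217, adjusted p = 0.00567), and B2m, the light chain of MHC class I, from 1342, 1337 and 1372 CP20M in Ve to 2732, 2224 and 1936 CP20M in R8 (log2 fold change 0.74, SE 0.161, adjusted p = 0.0237). The class I heavy chains H2-K1 (log2 fold change −0.01, adjusted p = 0.959) and H2-D1 (log2 fold change −0.19, adjusted p = 0.424) did not pass. With line M41 left out, no call was made for B2m (adjusted p = 0.071). Leaving out line M40 took the call from B2m (adjusted p = 0.151).

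Stress and metabolic lists held changes in both directions, to be read against 9.96% of all members called higher and 11.2% called lower. Of 27 genes of the integrated stress response 2 rose and 3 fell (median −0.36). Gdf15, a secreted stress hormone, rose from 1827, 325 and 1803 CP20M in Ve to 9192, 4831 and 5261 CP20M in R8 (log2 fold change 2.56, SE 0.403, adjusted p = 0.0095), and the glutathione-cleaving enzyme Chac1 fell from 1579, 344 and 1101 CP20M in Ve to 328, 201 and 334 CP20M in R8 (log2 fold change −1.53, SE 0.288, adjusted p = 0.0164). Line M40 was far below the others in Ve in both. Atf4 itself did not pass (log2 fold change −0.70, adjusted p = 0.0782). Of 18 genes of the unfolded protein response 1 rose and 1 fell, and the chaperone Hspa5 did not pass (log2 fold change −0.03, adjusted p = 0.916). The unfolded protein response held 5 risen genes without line M1. Of 28 nuclear genes of oxidative phosphorylation 1 fell, Cox5b (log2 fold change −0.80), and none of 6 mitochondrially encoded genes was called. Without M1 the falls among the nuclear genes numbered 7, and without M41 3 mitochondrially encoded genes fell. Of 25 genes of glycolysis and hypoxia 4 rose and 3 fell. Txnip, which restrains glucose uptake, was at 10926, 11141 and 11267 CP20M in Ve and 1521, 1507 and 2096 CP20M in R8 (log2 fold change −2.70, SE 0.164, adjusted p = 0.00124), with almost no spread in Ve. The collagen prolyl hydroxylase subunits P4ha2 (log2 fold change 1.80) and P4ha1 (log2 fold change 1.65) rose, and Pkm (log2 fold change 0.09, adjusted p = 0.786) and Gapdh (log2 fold change 0.09, adjusted p = 0.779) did not pass. Of 18 p53 targets and related genes 2 rose, Cdkn2a, which encodes p16 and p19Arf, from 1190, 1028 and 897 CP20M in Ve to 3439, 3270 and 4379 CP20M in R8 (log2 fold change 1.81, SE 0.188, adjusted p = 0.00362), and Pmaip1, a BH3-only protein (log2 fold change 1.18). Of 17 NRF2 targets 1 rose and 3 fell, among them Gstm1 (log2 fold change −2.28) and Gpx2 (log2 fold change −1.12). The NRF2 list held 1 fall without M41 and 1 without M40, and the p53 list 5 rises without M1, with edgeR and with median-of-ratios size factors. The libraries of the other lines, without M41, gave no call for Gpx2 (adjusted p = 0.123) or Cox5b (adjusted p = 0.14). After removal of line M40 the test was no longer passed by Gpx2 (adjusted p = 0.248) and Cox5b (adjusted p = 0.225).

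Of 14 xenobiotic enzymes and drug transporters 5 fell and 1 rose, with 2, 1 and 8 falls without M41, M40 and M1. The drug exporter Abcg2 rose from 46, 33 and 35 CP20M in Ve to 214, 207 and 188 CP20M in R8 (log2 fold change 1.95, SE 0.296, adjusted p = 0.00863), while Abcb1a, P-glycoprotein, fell (log2 fold change −1.25). The glucuronosyl transferases Ugt1a1 (log2 fold change −1.41), Ugt1a7c (log2 fold change −1.35) and Ugt2b34 (log2 fold change −1.81) fell too, and the Ugt1a genes share exons, so that their reads may be split between them. Cyp2c55, a cytochrome P450 of the colon, was at 686, 410 and 92 CP20M in Ve and 4, 15 and 23 CP20M in R8 (log2 fold change −3.29, SE 0.656, adjusted p = 0.0192). Of 13 genes of the TGF-beta and BMP pathway 1 rose and 2 fell, a called share near that of all members (21.2%). Inhba, the activin A subunit, rose from 1096, 1555 and 968 CP20M in Ve to 8139, 7271 and 3976 CP20M in R8 (log2 fold change 2.37, SE 0.201, adjusted p = 0.00227), and Id2, a target of BMP signalling, fell (log2 fold change −1.44). The receptor Tgfbr2 did not pass (log2 fold change 0.11, adjusted p = 0.674). Once line M41 was dropped, there was no call for Abcb1a (adjusted p = 0.0609), Ugt1a1 (adjusted p = 0.0915) or Ugt1a7c (adjusted p = 0.0821). Without line M40 the call was lost for Ugt2b34 (adjusted p = 0.0732), Abcb1a (adjusted p = 0.0948), Ugt1a1 (adjusted p = 0.127) and Ugt1a7c (adjusted p = 0.123).

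To see where 8 µM differed from the next dose, R8 was compared with R4 in the same lines. The R4 library of line M41 held 512599 reads, so that 1 read was worth 39.0 CP20M there. With all 9 libraries 1 of the 10507 genes passed (0.00952%), Abca1, with 865 at an unadjusted p under 0.05. edgeR on whole reads called 2 genes, Abca1 and Sema7a. Abca1 was at 547, 536 and 1090 CP20M in R4, the level of Ve, against 89, 56 and 138 CP20M in R8 (log2 difference −2.69, adjusted p = 0.04999). Abcg1, the related exporter, had 1561, 1554 and 2023 CP20M in R4 (log2 difference of R8 −1.90, adjusted p = 0.296) and did not pass. With whole lines left out, limma passed 17 genes without M41, none without M40 (264 at an unadjusted p under 0.05) and none without M1 (795). Without the shallow library alone 6 genes passed. In that fit Abca1 (log2 difference −2.80, adjusted p = 0.0103), the semaphorin Sema7a (log2 difference −1.86, adjusted p = 0.0466) and the transcript Gm15441 (log2 difference −1.38, adjusted p = 0.0466), which overlaps Txnip, were lower in R8 than in R4. Serpinb9b (log2 difference 2.58, adjusted p = 0.0466), AL589871.1 (log2 difference 2.5, adjusted p = 0.0466) and sorbitol dehydrogenase, Sord (log2 difference 1.76, adjusted p = 0.0466), were higher. Sema7a was at 2185, 3188 and 1462 CP20M in R4 beside 1572, 1790 and 579 CP20M in Ve and 730, 1018 and 357 CP20M in R8, so that each line lay above its Ve value in R4 and below it in R8. Its fall from Ve to R8 was not called without line M40 (adjusted p = 0.0913).

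For the other genes no difference between the doses was shown, and the values stand side by side. Relative to Ve, which both comparisons share, the genes that rose in R8 had a median log2 fold change of 0.85 in R4 and 1.13 in R8, and those that fell −0.73 and −1.03, without the shallow R4 library. These genes were picked by their calls in R8. Here and in the list medians below, the R4 values rest mainly on lines M40 and M1, whereas those of R8 include M41. The medians of the doses are therefore not like for like. By list, the medians in R4 and R8 were −3.14 and −3.19 for colonocyte genes, −2.92 and −3.11 for goblet cell genes, 1.36 and 1.92 for the matrix, 0.63 and 1.03 for the lysosome and −0.03 and −0.32 for ERK targets. Dusp6 was at 3005, 8484 and 8114 CP20M in R4 and Egr1 at 157, 1256 and 764 CP20M. Fn1 was at 56341, 93302 and 102867 CP20M and Muc2 at 391, 48 and 22 CP20M.

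The response was also compared with that of the tumoroids at the same dose. A difference in response passed for none of the 10507 genes (0%) with limma and for none with edgeR, with 825 and 823 at an unadjusted p under 0.05. The lowest adjusted p, 0.184, was that of Clca1, whose log2 fold change was −6.63 in colonoids and −0.44 in tumoroids (difference −6.18, SE 0.737). In tumoroids Clca1 was at 15, 13 and 3 CP20M in Ve and 3, 0 and 3 CP20M in R8 of lines F11, M3 and M14, so that their Ve values lay far below those of the colonoids. Muc2 likewise was at 41, 1 and 10 CP20M in Ve and 3, 9 and 8 CP20M in R8 of lines F11, M3 and M14. With line M1 left out Clca1 passed, and no other gene did. No gene is therefore called particular to colonoids, and an unpassed test does not show that the responses are alike. The list medians in tumoroids were −1.70 for colonocyte genes, −0.63 for goblet cell genes, 0.93 for the matrix, 0.71 for the lysosome and 0.33 for the cell cycle, where colonoids had −0.55. The log2 fold changes of Fn1, Vim and Gramd1a were 5.18, 4.33 and 2.34 in tumoroids beside 4.07, 4.33 and 2.04 in colonoids. The log2 fold change of Timp3 was 2.78 in colonoids and −1.13 in tumoroids and that of Bnip3 1.55 and −0.22, with adjusted p-values of the difference of 0.534 and 0.319.

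**Figure D5:**
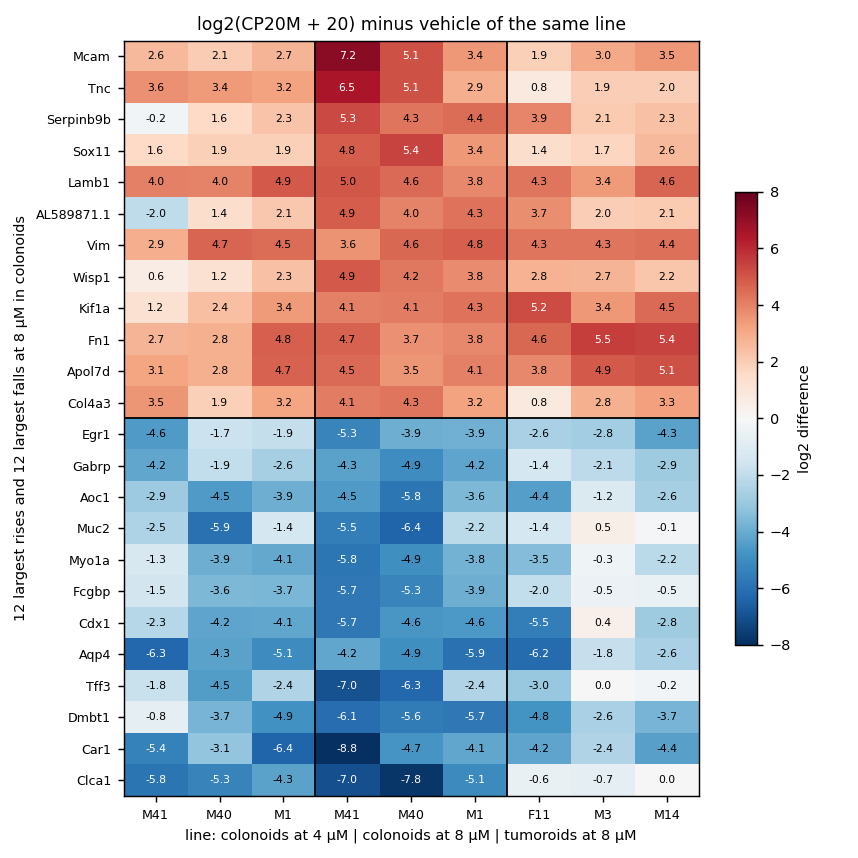
Difference of log2(CP20M + 20) from the vehicle library of the same line (colour and number, red above 0 and blue below), for the 12 largest rises and 12 largest falls in R8 colonoids (rows) in colonoids at 4 µM, colonoids at 8 µM and tumoroids at 8 µM (columns, 3 lines each). Every cell of colonoids at 8 µM has the sign of its block, while Clca1 stays within 1 of 0 in the 3 tumoroid lines.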

How the data were processed

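RNA of mouse colon organoids was sequenced, and per the labels and the study's methods reads were trimmed (Trimmomatic 0.36), aligned to GRCm38 (STAR 2.5.3a) and counted per gene (HTSeq 0.9.1). The deposited values are a signal, CP20M: read counts per gene that the authors scaled to 20000000 per library and rounded up. Their scaling fixes every total, so depth was read from the steps between low values. The strand setting of the counting and the role of the 2 library kits named in different sources are not given in the sources used here. Coordinates are those of GENCODE M21 on GRCm38, matched by gene ID for 10489 of 10507 members.

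Groups followed the labels. log2(CP20M + 20) was fitted with limma 3.58.1 (R 4.3.3) with a trend in the variance, the line as a block and Benjamini-Hochberg adjustment over all members. A gene was called where it differed at least 1.5-fold with an adjusted p under 0.05. R8 against R4 used 9 libraries, and the difference from tumoroids 12. Libraries of 1 line share its name in the labels, and per the study each line came from 1 mouse, so the paired fit was used. Deviations of Ve and R8 from their group means correlated at 0.18, 0.62 and 0.22 in M41, M40 and M1. Between different lines the correlations ranged from −0.40 to 0.17. In R8 against Ve the p-values measure the spread of the paired differences between the 3 lines. The variance of each gene was moderated by limma towards a trend over all members. Whole reads were recovered from the CP20M steps, and in the 6 libraries 99.7% to 99.9% of values were met exactly by a whole number of reads after scaling and rounding up. The reads of the tumoroid line M3 are approximate. They were tested with edgeR 4.0.16, quasi-likelihood, which called 2234 genes in R8 against Ve. The fits were also run on simulated data, with few genes changed and the same line effect in both groups. That setting differs from these data, so nothing is concluded from it here.

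Genes were named by rule: the 12 largest rises and falls among called genes, up to 5 called and 3 highest uncalled genes per list, all listed kinases and Gramd1 genes, and genes called in the other comparisons, apart from a few that are not reported here. Of 202 tested genes named, 47 fall outside the rule and were chosen after their values were seen, among them the laminin and collagen IV chains other than Lamb1 and Col4a3, Hnf4a, Sox4, Tfeb, Lamp1, Npc2, Ctsb, Dusp6, Spred3, Etv5, B2m, Bst2, Cyr61, Ltbp1 and Slc26a2. Members and lists were chosen with earlier results of these data known. Alternatives were no block, constants of 5 and 100, other filters, other size factors, more libraries in the fit, edgeR and each line left out.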

Additional observations from a re-analysis of the deposited data

How the results depend on the processing

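The count of 2227 changed genes stood at 1835 to 2251 without the block of lines, with constants of 5 or 100, without a filter, with median-of-ratios size factors, with all 24 organoid libraries or with edgeR. Without the block (unpaired) it was 2193, and of the 152 named genes called, 18 were then not called. It was 1214 among the 5537 genes with at least 1000 CP20M, where fewer genes were tested. It was 734 with the R4 libraries in the fit, including the shallow one, and 9 at an adjusted p under 0.001. With 1 line left out it ranged from 844 to 3085. For 8 against 4 µM, 1 gene passed, 0 without the block (840 at an unadjusted p under 0.05), 2 with edgeR, 6 without the shallow R4 library, and 0 to 17 with 1 line left out. For the difference from tumoroids, 0 to 1 passed with 1 line left out, and 0 in the other alternatives run (671 to 837 at an unadjusted p under 0.05). The cause was not tested.

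All 152 named genes called kept their sign in every alternative, and 94 their call too. Of 50 named genes not called, 14 changed sign near 0. With edgeR the log2 fold change was 0.0229 for Araf, 0.008104 for Sdc4, 0.0107 for Hspa5, 0.005044 for Ctsh and 0.0279 for H2-K1. With median-of-ratios size factors the log2 fold change was 0.0187 for Araf, 0.002745 for Sdc4, 0.005491 for Hspa5 and 0.0222 for H2-K1. Left without 1 line, it ranged from −0.14 to 0.0583 for Araf, −0.12 to 0.30 for Ccnd1, −0.0911 to 0.48 for Cdh1, −0.0593 to 0.31 for Cdhr2, −0.11 to 0.0867 for Ctsh, −0.0414 to 0.28 for Ddr1, −0.39 to 0.13 for Egfr, −0.0855 to 0.28 for Gapdh, −0.16 to 0.14 for H2-K1, −0.20 to 0.10 for Hspa5, −0.12 to 0.27 for Itga6, −0.007357 to 0.25 for Pkm, −0.0728 to 0.0108 for Sdc4 and −0.013 to 0.22 for Tgfbr2. With 3 lines, values of 3 reads or fewer, such as those of Clca1 in R8, limit the size of a fall, and the shallow R4 library limits what a comparison of the doses could show. Without the block 11 colonocyte and 10 goblet cell genes fell, 21 matrix and 22 lysosomal genes rose, 3 integrin subunits rose and 2 cell cycle genes fell.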

Other observations

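Genes outside the lists changed too, and the following were chosen by hand after their values were seen. Among those that fell, Muc13, a membrane mucin of the gut surface, was at 4413, 6129 and 6883 CP20M in Ve and 79, 226 and 989 CP20M in R8 (log2 fold change −4.30, adjusted p = 0.00408). Gucy2c, the receptor for guanylin and uroguanylin, was at 890, 1056 and 865 CP20M in Ve and 42, 33 and 78 CP20M in R8 (log2 fold change −3.80, adjusted p = 0.00157). Ihh, the hedgehog ligand made by the differentiated epithelium, was at 492, 1141 and 185 CP20M in Ve and 10, 33 and 60 CP20M in R8 (log2 fold change −3.30, adjusted p = 0.0152). Myb, a transcription factor of colonic progenitors, was at 146, 698 and 210 CP20M in Ve and 0, 5 and 10 CP20M in R8 (log2 fold change −3.61, adjusted p = 0.00657). In all 4 genes every R8 value lay below every Ve value. Groups that did not overlap were found for 2116 of the 2227 called genes and for 43.2% of all members.

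Among those that rose, several are best known from neurons, muscle or development. Tubb2b, a beta-tubulin of developing neurons, was at 268, 502 and 146 CP20M in Ve and 4770, 4246 and 2430 CP20M in R8 (log2 fold change 3.66, adjusted p = 0.00124). Ndrg4, best known from heart and brain, was at 31, 34 and 18 CP20M in Ve and 1367, 639 and 220 CP20M in R8 (log2 fold change 3.68, adjusted p = 0.00434). Lgals1, galectin 1, was at 55, 59 and 43 CP20M in Ve and 488, 873 and 819 CP20M in R8 (log2 fold change 3.33, adjusted p = 0.00184). Mycn, a MYC family factor, was at 52, 116 and 72 CP20M in Ve and 965, 756 and 623 CP20M in R8 (log2 fold change 3.03, adjusted p = 0.00288), beside the fall of Myc. Notch3, a Notch receptor of vascular smooth muscle, was at 137, 46 and 241 CP20M in Ve and 1760, 647 and 797 CP20M in R8 (log2 fold change 2.83, adjusted p = 0.0062). Rragd, a GTPase that binds the mTORC1 complex to the lysosome, was at 43, 59 and 18 CP20M in Ve and 878, 840 and 426 CP20M in R8 (log2 fold change 3.61, adjusted p = 0.00124). The Ve values of these genes lay below all their R8 values, as was usual for called genes (2116 of 2227 did not overlap). Ndrg4, Lgals1, Mycn and Rragd reached the minimum through their R8 values alone, so for them this pattern is partly set by the rule for members.

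By gene family, taken from the symbols, 5 of 11 keratins tested fell (Krt4, Krt13, Krt20, Krt23 and Krt36) and none rose, and all 4 mucins (Muc1, Muc2, Muc3 and Muc13) fell. Of 7 collagens 6 rose, 5 chains of collagen IV and Col7a1 (not called without M41, adjusted p = 0.0534, or without M40, adjusted p = 0.0669), and of 10 serpins 6 rose. Solute carriers went both ways, with 21 of 159 higher and 17 lower, against 9.96% and 11.2% of all members.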
